A study of Mus musculus with 32 samples.

Results

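The macrophage markers described here are 9 genes, Adgre1, Ptprc, Cd68, Csf1r, Lyz2, Itgam, C1qa, C1qb and Tyrobp, out of the 55414 gene IDs of the count table. They were chosen by name, by matching the Ensembl IDs to GENCODE symbols of the mouse genome build GRCm38, and all 9 passed the filter on low counts, among 16760 genes tested. They were followed through poly(A) RNA sequencing of mouse cardiac fibroblasts in culture, all from C57BL/6J mice labelled Pkm2fl/fl, a floxed allele of the pyruvate kinase gene. Of the cultures, 1 set was transduced with a vector for iCre, a recombinase that cuts floxed DNA, and the other with a LacZ vector as the control. Each then received 20 ng/ml of basic fibroblast growth factor (bFGF), 15 ng/ml of interleukin-1 beta (IL-1b) or 10 ng/ml of transforming growth factor beta (TGFb) for 24 h, or stood in the condition titled SS. The groups are iCre with bFGF, IL-1b, TGFb and SS, and LacZ with bFGF, IL-1b, TGFb and SS, each with 4 libraries numbered 1 to 4, which makes 32. All groups thus share the floxed allele and a vector. The labels describe cells of passage 1 grown in a medium with 10% serum and 20 ng/ml of bFGF, equal to the bFGF dose.

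Macrophages are phagocytes of the innate immune system that reside in most tissues, the heart included. They express a set of proteins that stromal cells largely lack, among them the pan-leukocyte phosphatase CD45, the receptor for the growth factor CSF-1, lysosomal proteins, and the complement component C1q. Fibroblasts make CSF-1, on which macrophages depend for survival.

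Titles do not spell out SS, whereas a protocol text speaks of serum starvation. That text, which gives the doses, also names TAK1fl/fl mice and a TNFa arm, not analysed here, and for the 16 LacZ libraries the treatment tag does not match the title. Groups were therefore taken from the titles. What a replicate number stands for is not stated, so p-values measure only the spread between these libraries. Total counts ran from 20736203 to 34995038 per library. Pkm, the targeted gene, stood at 382 to 1690 CPM (counts scaled to a common library size) in the 16 iCre libraries, against 595 to 2410 CPM in the 16 LacZ libraries. Its log2 difference averaged over the 4 conditions was -0.51 ± 0.09 (SE; adjusted p = 0.00381, edgeR). The fit counts the conditions of a replicate number as separate evidence on the vector, so this p-value can be too small. Counts per gene cannot show which of the isoforms PKM1 and PKM2 was made. Summed over the 6 fibroblast markers Col1a1, Col1a2, Pdgfra, Dcn, Tcf21 and Dpt, the libraries held 9640 to 40800 CPM, with a median of 23800 CPM.

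Promoter sequence is shown for 4 of the 9 genes because most of the 9 moved together under TGFb (values follow). Among the 4 shown, Itgam was not called lower with TGFb (adjusted p = 0.324, edgeR). Of the 9, 5 had an entry in the RefSeq promoter table of build GRCm38.p6, and for the fifth, Ptprc, the listed windows lie within the annotated gene. Each line below gives bases before the RefSeq start, read 5′ to 3′ on the strand of the gene, with any base inside the annotated gene left out. Capitals mark the motifs GAGGAA and AGGAAGT on either strand, so that TTCCTC and ACTTCCT are their reverse complements. Both hold the GGAA core that ETS-family transcription factors bind, of which PU.1 is the one best known in macrophages, and a site that overlaps both motifs would count for each.

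C1qb (chr4:136886201-136886450, minus strand): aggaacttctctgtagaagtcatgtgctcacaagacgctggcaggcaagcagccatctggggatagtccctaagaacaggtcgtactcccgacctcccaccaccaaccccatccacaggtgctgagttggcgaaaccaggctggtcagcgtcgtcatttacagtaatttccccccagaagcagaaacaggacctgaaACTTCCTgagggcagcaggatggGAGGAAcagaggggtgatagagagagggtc

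Cd68 (chr11:69666171-69666420, minus strand): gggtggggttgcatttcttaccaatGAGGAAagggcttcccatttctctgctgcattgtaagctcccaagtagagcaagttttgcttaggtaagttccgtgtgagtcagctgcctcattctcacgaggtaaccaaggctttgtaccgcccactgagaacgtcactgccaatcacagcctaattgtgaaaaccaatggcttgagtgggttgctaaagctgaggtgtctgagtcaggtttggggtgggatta

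Itgam (chr7:128062390-128062639, plus strand): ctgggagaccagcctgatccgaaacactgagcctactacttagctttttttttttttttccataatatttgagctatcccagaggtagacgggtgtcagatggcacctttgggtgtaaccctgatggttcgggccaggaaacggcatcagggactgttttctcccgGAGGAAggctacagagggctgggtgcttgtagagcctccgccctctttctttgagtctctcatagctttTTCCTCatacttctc

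Lyz2 (chr10:117282322-117282522, minus strand): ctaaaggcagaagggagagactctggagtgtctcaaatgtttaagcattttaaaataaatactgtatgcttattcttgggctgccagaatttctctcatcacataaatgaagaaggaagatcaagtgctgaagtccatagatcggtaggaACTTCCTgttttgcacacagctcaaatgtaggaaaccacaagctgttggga

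In C1qb, GAGGAA stands 30 to 25 bases before the start, and AGGAAGT lies on the opposite strand at 53 to 47 bases. Cd68 holds GAGGAA at 225 to 220 bases. Itgam holds it at 84 to 79 bases and, on the opposite strand, at 15 to 10 bases, while Lyz2 holds AGGAAGT on the opposite strand at 100 to 94 bases. GAGGAA occurs in 23.3% of all 32851 promoter windows of 250 bases, AGGAAGT in 7.69% and at least one of them in 27.3%. The motifs were chosen after these sequences had been read, and a match of letters is a description, not a binding site.

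Per length of exon, lysozyme M (Lyz2), an enzyme that digests bacterial cell walls and is abundant in myeloid cells, had the highest level of the 9. Its median was 79.5 RPKM (CPM per kilobase of exon). The C1q chains followed at 15.9 RPKM for C1qb and 14 RPKM for C1qa, both subunits of the protein that starts the classical complement cascade. Tyrobp, the signalling adaptor DAP12, had a median of 6.3 RPKM. Cd68, a lysosomal glycoprotein, had 5.14 RPKM, Csf1r, the receptor for CSF-1 and IL-34, 3.68 RPKM, and Adgre1, the adhesion receptor F4/80, 2.19 RPKM. Itgam, the integrin chain CD11b, had 0.31 RPKM and Ptprc, which encodes CD45, 0.173 RPKM. The length used joins all annotated exons of a gene, 18313 bases for Ptprc and 5024 bases for Itgam. In CPM their order was the reverse, with medians of 3.16 CPM for Ptprc and 1.56 CPM for Itgam. None of the 9 genes was at 0 in any of the 32 libraries, and the lowest count was 7, for Itgam.

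Positions and shared exons bear on how these counts are read. In GRCm38 the genes lie at chr17:57358691-57483527 (Adgre1), chr1:138062861-138175708 (Ptprc), chr11:69664213-69666153 (Cd68), chr18:61100598-61132149 (Csf1r), chr10:117277331-117282321 (Lyz2), chr7:128062640-128118491 (Itgam), chr4:136895917-136898803 (C1qa), chr4:136880129-136886187 (C1qb) and chr7:30413760-30417585 (Tyrobp). Itgam shares 68.7% of its exon bases with a gene model on the same strand, Gm49368, which was given 23 counts over the 32 libraries, so how reads were split there is uncertain. Csf1r shares 15.1% of its exon bases with Hmgxb3 on the opposite strand, and since the strand setting of the counting is not given in the sources used here, part of the Csf1r count could come from Hmgxb3. Hmgxb3 had 34.2 to 59.9 CPM over the 32 libraries. Lyz2 has a close copy, Lyz1, which was counted at 0.0279 to 2.06 CPM.

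The replicate number accompanied the largest differences in marker level, ahead of the stimulus and the vector. Summed over the 9 genes, the 8 libraries of number 3 held 365 to 939 CPM with a median of 583 CPM, those of number 1 189 to 422 CPM with a median of 299 CPM, those of number 2 69.3 to 170 CPM with a median of 114 CPM, and those of number 4 31.4 to 87.1 CPM with a median of 59.7 CPM. Number 3 was highest in 8 of 8 groups for each of the 9 genes. For 8 of the 9, Cd68 being the exception, the order was number 3, then 1, then 2, then 4 in 8 of 8 groups. The geometric mean level in number 3 was 10.2-fold (Lyz2) to 15.8-fold (C1qb) that in number 4 for those 8 genes.

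Cd68 spread less. Its level in number 3 was 4.16-fold that in number 4, and its level in number 2 was 0.808-fold that in number 4, so that number 4 was its lowest in 2 of 8 groups. The number took 75% (Cd68) to 94.2% (Csf1r) of the variance of the log2 level over the 32 libraries. The stimulus took 0.974% (Csf1r) to 19.5% (Cd68), and the vector at most 0.851% (Csf1r). RNA from a whole culture does not show which cells made the marker RNA. More macrophages and more marker RNA per cell cannot be told apart, here or in any comparison that follows.

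**Figure D1:**
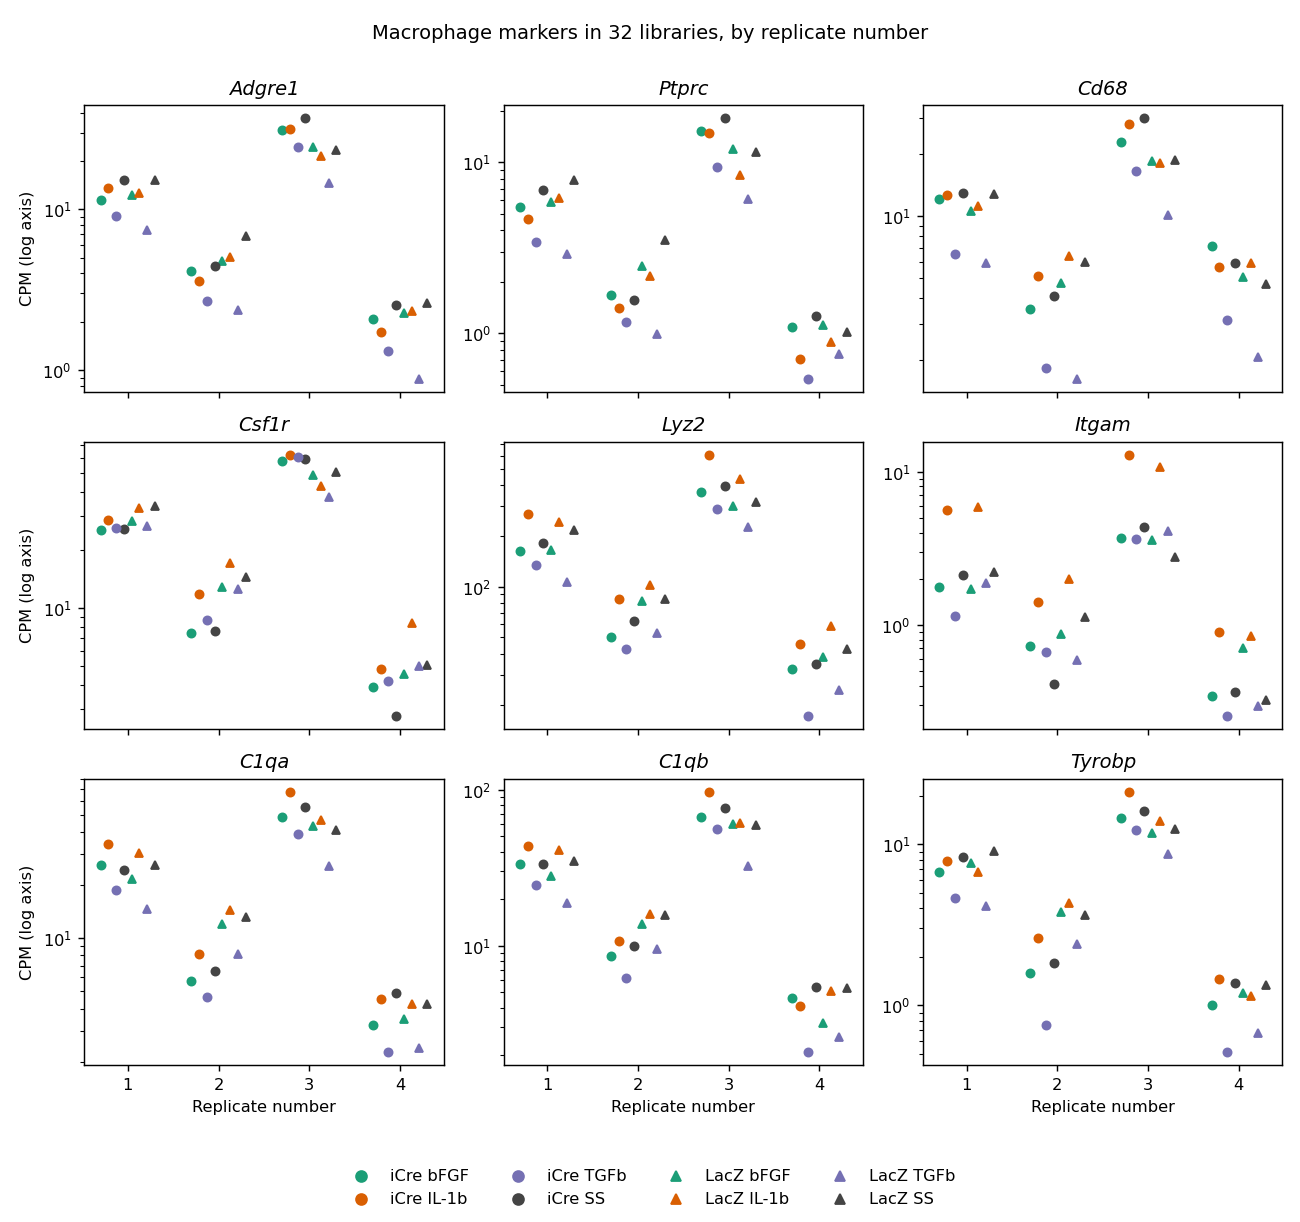
Level of each of the 9 macrophage markers in CPM (log axis) by replicate number, 1 panel per gene, with colour for the condition and circles for iCre and triangles for LacZ, 1 point per library. Number 3 is highest in each panel, and number 4 lowest in 8 of 9, the exception being Cd68.

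The 9 genes followed each other across the libraries. Pearson's r of the log2 level ran from 0.786 to 0.995 over the 36 pairs of genes, with a median of 0.954, across 32 libraries that share 4 numbers. With the mean of each number removed, it ran from 0.225 to 0.943 with a median of 0.714. Among 11601 other protein-coding genes, the median r with the mean of the 9 was -0.0141, and 56 genes exceeded 0.9. The 10 genes most like the 9 over the 32 libraries were C1qc (r = 0.992), Laptm5 (0.991), Cd84 (0.989), C5ar1, Myo1f and Cyth4 (0.988 each), Pld4 (0.987), Lcp1 (0.986), Lilrb4a and Rac2 (0.984 each). With the mean of each number removed, the 10 were Lilr4b (0.955), Lcp1 (0.946), Lilrb4a (0.938), C1qc (0.932), Laptm5 (0.929), Pld4 (0.904), Cd93 (0.894), Slc11a1 (0.888), Dtx4 and Fermt3 (0.884 each). Dtx4 had r = 0.207 over the 32 libraries before that step. C1qc is the remaining chain of C1q, and Laptm5, a lysosomal membrane protein, and Lcp1, the actin-bundling L-plastin, are hematopoietic genes.

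With TGFb, 7 of the 9 markers fell against SS, in both vectors, and 2 did not pass the threshold. The 7 were Adgre1, Ptprc, Cd68, Lyz2, C1qa, C1qb and Tyrobp, and their fitted levels fell to 0.469 (Cd68) to 0.626 (Lyz2) of the SS level. The 2 others were Csf1r and Itgam. Differences were estimated within replicate numbers in 1 edgeR quasi-likelihood model over all libraries, averaged over the vectors, with p adjusted over all genes tested and a threshold of 0.05. Under this rule 35.8% of all genes tested fell with TGFb and 68% changed in either direction, so 7 of 9 is to be read against a background in which most genes changed. The median log2 difference was -0.78 over the 9 genes and -0.05 over all genes tested. Without the replicate number in the model, which leaves the spread between numbers in the error, 0 of the 9 were called, with an adjusted p of 0.11 (Cd68) to 0.49 (C1qa) for these 7.

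Adgre1, the F4/80 receptor, was at 9.14, 2.71, 24.4 and 1.31 CPM in iCre cells with TGFb (numbers 1 to 4), against 15.2, 4.44, 36.8 and 2.54 CPM in iCre cells in SS. In LacZ cells it was at 7.43, 2.36, 14.6 and 0.883 CPM with TGFb, against 15.2, 6.79, 23.4 and 2.62 CPM in SS. The groups overlap because the numbers differ so widely, but within each of the 8 pairs of the same vector and number the TGFb library was the lower. The log2 difference was -0.94 ± 0.12 (SE; adjusted p = 2e-07, edgeR).

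Ptprc, the CD45 gene, was at 3.43, 1.16, 9.4 and 0.541 CPM in iCre cells with TGFb, against 6.92, 1.57, 18 and 1.26 CPM in iCre cells in SS. LacZ cells had 2.9, 0.985, 6.06 and 0.757 CPM with TGFb, against 7.86, 3.51, 11.5 and 1.01 CPM in SS. It was lower with TGFb in 8 of 8 pairs, by as little as -0.40 and as much as -1.81 on the log2 scale. The fitted difference was -1.07 ± 0.17 (adjusted p = 3.56e-06, edgeR).

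For Cd68, iCre cells with TGFb had 6.52, 1.82, 16.5 and 3.12 CPM, against 12.9, 4.07, 29.8 and 5.92 CPM in SS. Values in LacZ cells were 5.9, 1.62, 10.1 and 2.06 CPM with TGFb, against 12.8, 5.99, 18.7 and 4.7 CPM in SS. All 8 pairs moved down, and the log2 difference of -1.09 ± 0.14 was the largest of the 9 (adjusted p = 1.29e-07, edgeR).

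Lyz2, the lysozyme gene, was at 134, 42.7, 289 and 17.2 CPM in iCre cells with TGFb, against 182, 62.9, 395 and 35 CPM in iCre cells in SS. In LacZ cells it was at 107, 52.9, 226 and 24.3 CPM with TGFb, against 217, 84.5, 318 and 42.9 CPM in SS. Its fall of -0.68 ± 0.11 (adjusted p = 5.46e-06, edgeR) was among the smaller ones, and it too was seen in 8 of 8 pairs.

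The C1q chains and Tyrobp fell by similar amounts. C1qa was at 2.26 to 39.3 CPM in the 8 TGFb libraries, against 4.27 to 55.5 CPM in the 8 SS libraries, a log2 difference of -0.68 ± 0.16 (adjusted p = 7e-04, edgeR). C1qb was at 2.07 to 56.2 CPM with TGFb, against 5.31 to 76.3 CPM in SS, a difference of -0.78 ± 0.15 (adjusted p = 5.98e-05). Tyrobp was at 0.51 to 12.2 CPM with TGFb, against 1.33 to 16.1 CPM in SS, a difference of -0.81 ± 0.19 (adjusted p = 0.000673). Each was lower with TGFb in 8 of 8 pairs.

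Csf1r did not pass the threshold with TGFb and moved less than the 7 genes that fell. It was at 25.9, 8.62, 60.4 and 4.2 CPM in iCre cells with TGFb, against 25.7, 7.61, 59.1 and 2.77 CPM in iCre cells in SS. LacZ cells had 26.6, 12.6, 37.4 and 5 CPM with TGFb, against 33.8, 14.5, 50.8 and 5.06 CPM in SS. All 4 iCre pairs were higher with TGFb and all 4 LacZ pairs lower, over a range of -0.44 to 0.60 on the log2 scale. The averaged difference was -0.05 (adjusted p = 0.785, edgeR). In 8 of 8 pairs Csf1r stood above the median of the 9 genes, by 0.22 to 1.63 log2 units with a median of 0.71. Hmgxb3, which shares exon bases with it on the other strand, rose by 0.51 ± 0.06 with TGFb (adjusted p = 6.05e-08), and its part in the Csf1r count was not tested.

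Itgam, the CD11b chain, was at 1.14, 0.667, 3.63 and 0.255 CPM in iCre cells with TGFb, against 2.1, 0.41, 4.33 and 0.363 CPM in iCre cells in SS. In LacZ cells it was at 1.88, 0.591, 4.08 and 0.294 CPM with TGFb, against 2.21, 1.12, 2.76 and 0.323 CPM in SS. It was lower in 6 of 8 pairs, with log2 differences of -0.91 to 0.68 in counts that were the lowest among the 9 genes, and the fitted difference was -0.21 ± 0.19 (adjusted p = 0.324, edgeR).

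The same 7 genes fell with TGFb when each vector was taken alone, where 51.6% of all genes tested changed and 26.5% fell in iCre cells, and 58.4% changed and 30.3% fell in LacZ cells. In iCre cells the 7 differences ran from -0.59 (Lyz2) to -0.94 (Cd68), and in LacZ cells from -0.76 (Lyz2 and C1qa) to -1.25 (Cd68). With the 8 number 4 libraries left out, 4 of the 7 were called in iCre cells, and C1qa, C1qb and Tyrobp were not. The call of C1qa in iCre cells also ended without the low-count filter (-0.60, adjusted p = 0.0614). In LacZ cells the calls of C1qa (adjusted p = 0.0524) and Tyrobp (adjusted p = 0.135) ended without number 1. No marker passed edgeR's test of whether its TGFb response differed between the vectors, a test that called 0% of all genes. The largest such difference was 0.45 ± 0.24 for Adgre1 (unadjusted p = 0.0731), followed by 0.42 ± 0.30 for Csf1r (unadjusted p = 0.18). No marker reached an unadjusted p under 0.05 for any interaction by edgeR or DESeq2.

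**Figure D2:**
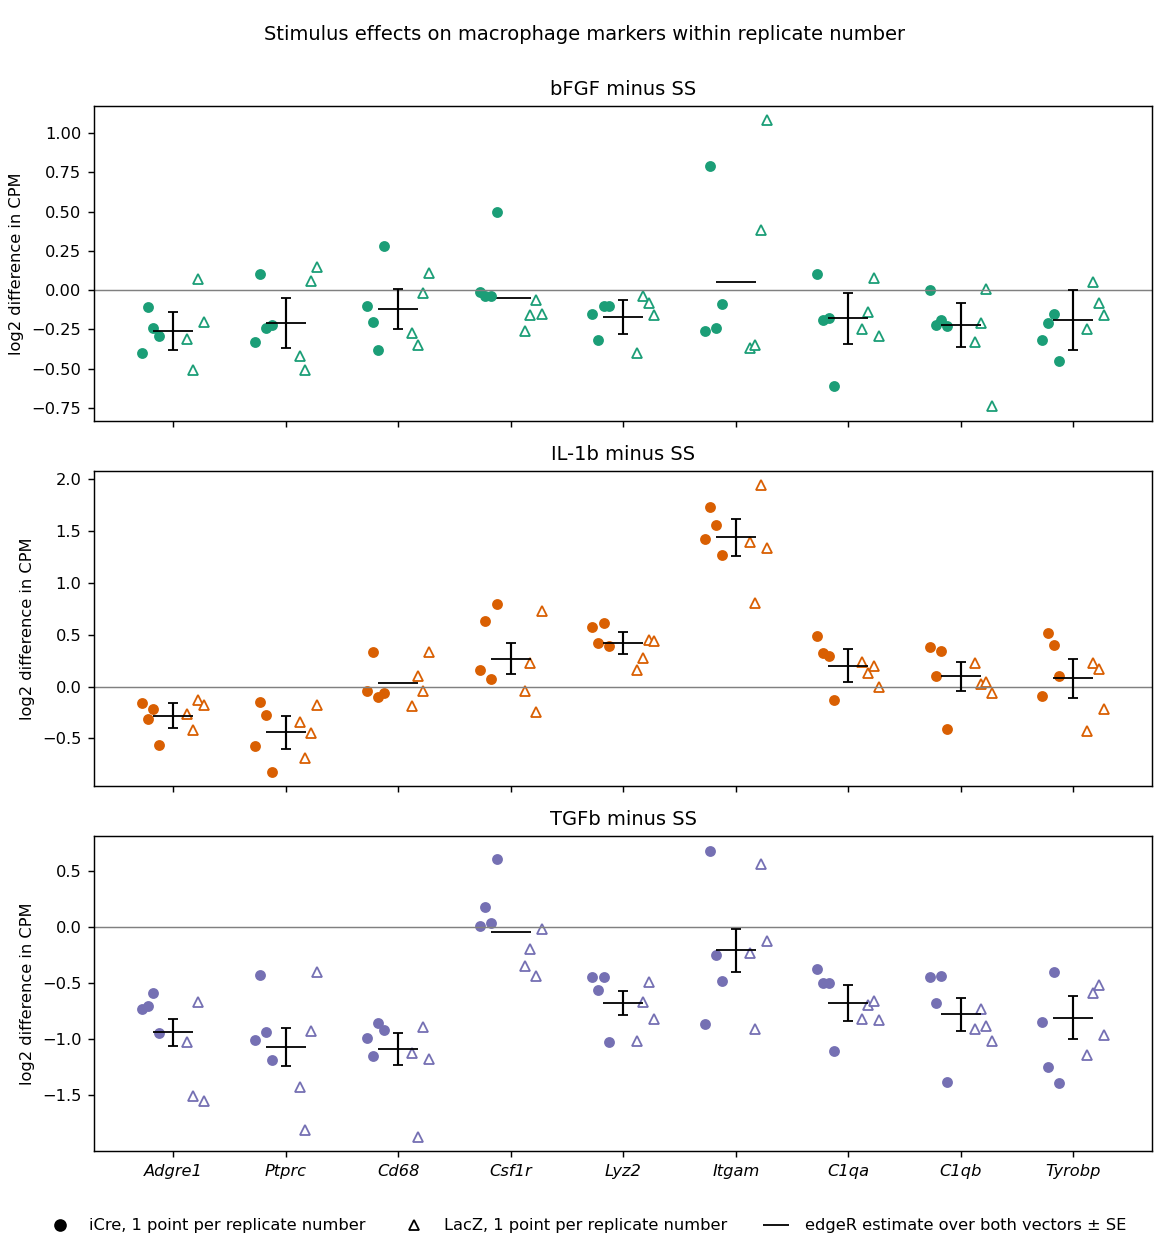
Log2 difference of each macrophage marker between a stimulus and SS, 1 panel per stimulus. Points are the 8 pairs of libraries with the same vector and number, bars the edgeR estimate ± SE (no SE is drawn where the estimate is 0.05 or less in size). With TGFb all 8 points lie below 0 for 7 genes, and with IL-1b all 8 lie above 0 for Itgam and Lyz2 and below 0 for Adgre1 and Ptprc.

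With IL-1b, Itgam and Lyz2 rose and Ptprc fell, and the other 6 markers did not pass the threshold. These 3 of 9 compare with 47.1% of all genes tested, of which 23.4% rose and 23.7% fell. The median log2 difference was 0.1 over the 9 genes and -0.02 over all genes tested. Without the replicate number in the model 0 of the 9 were called, and with a term for each vector and number 6 were, 4 higher and 2 lower.

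Itgam was at 5.65, 1.41, 12.8 and 0.901 CPM in iCre cells with IL-1b (numbers 1 to 4), against 2.1, 0.41, 4.33 and 0.363 CPM in iCre cells in SS. LacZ cells had 5.85, 1.98, 10.7 and 0.846 CPM with IL-1b, against 2.21, 1.12, 2.76 and 0.323 CPM in SS. The IL-1b library was the higher in 8 of 8 pairs, by 0.81 to 1.94 on the log2 scale. The fitted level was 2.7-fold that in SS, a log2 difference of 1.44 ± 0.18 (adjusted p = 3.06e-07, edgeR), and the call held in each vector alone (1.48 ± 0.25 in iCre cells and 1.39 ± 0.25 in LacZ cells).

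For Lyz2, iCre cells with IL-1b had 271, 84.3, 604 and 45.8 CPM, against 182, 62.9, 395 and 35 CPM in SS. In LacZ cells it was at 242, 102, 435 and 58.3 CPM with IL-1b, against 217, 84.5, 318 and 42.9 CPM in SS. It was higher in 8 of 8 pairs, by 0.16 to 0.61, and the fitted difference was 0.42 ± 0.11 (1.34-fold, adjusted p = 0.00235, edgeR). Taken alone, the iCre cells passed the threshold (0.51 ± 0.15, adjusted p = 0.0132) and the LacZ cells did not (0.33 ± 0.15, adjusted p = 0.102).

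Ptprc was at 4.66, 1.41, 14.9 and 0.704 CPM in iCre cells with IL-1b, against 6.92, 1.57, 18 and 1.26 CPM in iCre cells in SS. LacZ cells had 6.21, 2.17, 8.44 and 0.883 CPM with IL-1b, against 7.86, 3.51, 11.5 and 1.01 CPM in SS. All 8 pairs were lower with IL-1b, by -0.15 to -0.82, and the fitted difference was -0.44 ± 0.16 (adjusted p = 0.0257, edgeR). Leaving out number 1 gave the same -0.44 with an adjusted p of 0.128, and 9 further omissions of a library or number also ended the call, with differences of -0.33 to -0.56 over all omissions.

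Adgre1 was also lower with IL-1b in 8 of 8 pairs, by -0.13 to -0.56, and its fitted difference of -0.28 ± 0.12 had an adjusted p of 0.056 (edgeR). Csf1r differed by 0.27 ± 0.15 (adjusted p = 0.144), C1qa by 0.20 ± 0.16 (adjusted p = 0.317), and C1qb, Tyrobp and Cd68 by 0.10, 0.08 and 0.03. Within a vector, 2 markers rose in iCre cells, where 29% of all genes changed and 15% rose, and 1 rose in LacZ cells, where 32.3% changed and 16.8% rose.

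bFGF changed none of the 9 markers past the threshold, whereas 29.5% of all genes tested changed. By edgeR, 1 of the 9 had an unadjusted p under 0.05, and by DESeq2 0 of 9 did, with 0 called. The fitted log2 differences ran from -0.26 ± 0.12 for Adgre1 (adjusted p = 0.0979) to 0.05 for Itgam (adjusted p = 0.876), with a median of -0.18, against -0.01 over all genes tested. With a term for each vector and number in the model, 3 of the 9 were called lower, Adgre1 (-0.25, adjusted p = 0.0233), Lyz2 (adjusted p = 0.0491) and C1qa (adjusted p = 0.0435), and Adgre1 was also called without the LacZ SS library 3. Lyz2 was at 164, 50.4, 367 and 32.6 CPM in iCre cells with bFGF, against 182, 62.9, 395 and 35 CPM in SS, and at 165, 82.4, 301 and 38.3 CPM in LacZ cells with bFGF, against 217, 84.5, 318 and 42.9 CPM in SS. It was lower with bFGF in 8 of 8 pairs, by -0.04 to -0.40, a fitted difference of -0.17 with an adjusted p of 0.259. Adgre1, Csf1r, C1qb and Tyrobp were lower in 7 of 8 pairs each. Within a vector the count was 0 of 9 in iCre cells and 0 of 9 in LacZ cells, where 11.4% and 12.2% of all genes changed. Neither edgeR nor DESeq2 gave a marker an unadjusted p under 0.05 there, whereas edgeR gave it to 4501 and 4499 of all genes tested. The 3 stimuli share their SS libraries.

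iCre changed none of the 9 markers against LacZ past the threshold, averaged over the 4 conditions, where 2.83% of all genes did. An unadjusted p under 0.05 was found for 2 of the 9 by edgeR and for 2 by DESeq2, with 0 called by DESeq2. The edgeR pair were Cd68 (0.21 ± 0.10, adjusted p = 0.286) and Csf1r (-0.23 ± 0.11, adjusted p = 0.306). Among the 16 pairs matched for condition and number, the iCre library was the higher in 12 for Cd68 and the lower in 12 for Csf1r. The other 7 genes differed by -0.16 (Itgam) to 0.11 (Adgre1). In single conditions 0 of 9 were called by edgeR, against 0.00597% of all genes with bFGF, 0% with IL-1b, 0.0298% with TGFb and 0% in SS. With TGFb, 2 markers had an unadjusted p under 0.05 by edgeR and 2 by DESeq2, and in SS 1 did by DESeq2.

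The difference between the vectors had opposite signs in numbers 3 and 2. In number 3 the iCre library was the higher in 35 of 36 values (9 genes in 4 conditions), with a median log2 difference of 0.49. In number 2 it was the lower in 32 of 36, with a median of -0.60. Number 1 was split at 18 higher and 18 lower with a median of 0, and number 4 had 13 higher and 23 lower with a median of -0.12. Over all genes tested the median lay between -0.03 and 0.02 in each of the 16 pairs. Lyz2 in SS shows the pattern, with 395 CPM in iCre and 318 CPM in LacZ of number 3, and 62.9 CPM in iCre and 84.5 CPM in LacZ of number 2. Leaving out a number moved the averaged calls in edgeR. Without number 3, Csf1r was lower in iCre by -0.46 (adjusted p = 0.00795), and without number 2, Cd68 was higher by 0.35 (adjusted p = 0.0456). Here the fit counts the 4 conditions of a number as separate evidence on the vector. Since the sign of the difference varied between numbers, these p-values can be too small. What sets the numbers apart was not tested.

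**Figure D3:**
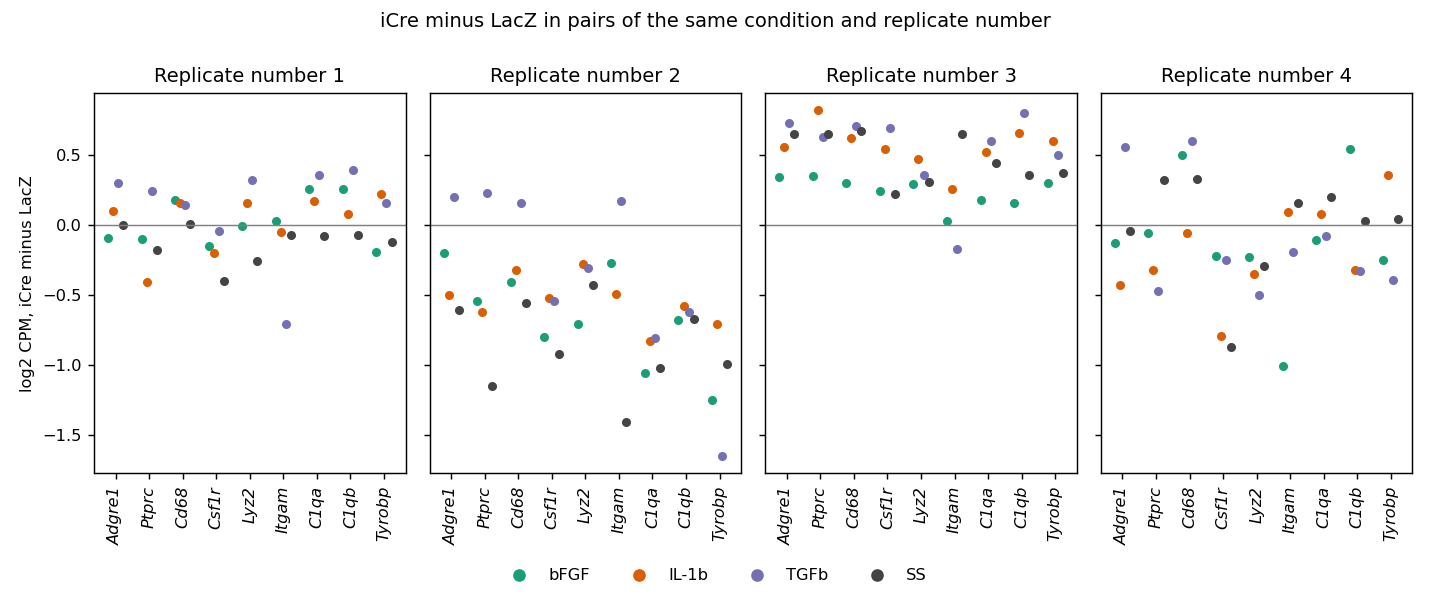
Log2 difference between the iCre and the LacZ library of the same condition and number for the 9 macrophage markers, 1 panel per number, 1 point per condition. Points lie above 0 in 35 of 36 cases in number 3 and below 0 in 32 of 36 in number 2.

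A wider list of 36 macrophage genes, of which 32 were tested, was mostly lower with TGFb as well. There 24 fell, against 35.8% of all genes tested, and 2 rose, with a median log2 difference of -0.82. Without the replicate number in the model 8 fell and 2 rose. Gpnmb, a glycoprotein of lysosome-rich macrophages, fell by -1.76 ± 0.14 (adjusted p = 5.68e-11, edgeR). The chemokine Pf4 fell by -1.77 ± 0.16 (adjusted p = 5.05e-10) and the elastase Mmp12 by -2.12 ± 0.23 (adjusted p = 9.02e-09). Spi1, which encodes PU.1 and is named here after its value was seen, fell by -0.88 ± 0.22 (adjusted p = 0.00109) and was lower in 8 of 8 pairs.

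Clec7a, a receptor for fungal glucans, was among the genes of the list that rose with TGFb, by 1.44 on the log2 scale (adjusted p = 0.000421, edgeR). Over the 32 libraries, 13 of the tested genes of the list had a correlation with the mean of the 9 markers above 0.9. Under 0.6 lay 7 genes, among them Clec7a, Mertk, Lyve1, Cd14, Mmp12 and Gpnmb.

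With IL-1b, 16 of the 32 rose and 6 fell, against 23.4% and 23.7% of all genes tested, with a median of 0.41. Without the replicate number in the model 7 rose and 3 fell. Pf4 rose by 2.06 ± 0.14 (adjusted p = 5.48e-12, edgeR), Mmp12 by 2.36 ± 0.18 (adjusted p = 7.34e-11) and Msr1, a scavenger receptor, by 2.20 ± 0.23 (adjusted p = 2.67e-08), each in 8 of 8 pairs. Cx3cr1, the receptor for the chemokine CX3CL1, fell by -2.08 ± 0.26 (adjusted p = 3.47e-07). Cx3cr1 averaged 1.39 ± 1.24 CPM in iCre cells with IL-1b and 6.81 ± 7.75 CPM in iCre cells in SS, and 1.49 ± 1.27 CPM in LacZ cells with IL-1b and 6.04 ± 4.75 CPM in LacZ cells in SS (SD, n = 4 each). With bFGF, where 29.5% of all genes tested changed, 3 rose and 2 fell, among them Mertk, a receptor for dying cells, by 1.05 (adjusted p = 0.000113) and Gpnmb by -0.49 (adjusted p = 0.00691), whose call ended without number 1 or number 2. Without the low-count filter these counts with bFGF were 2 and 1, without the replicate number in the model 1 and 0, and with a term for each vector and number 3 and 6.

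**Figure D4:**
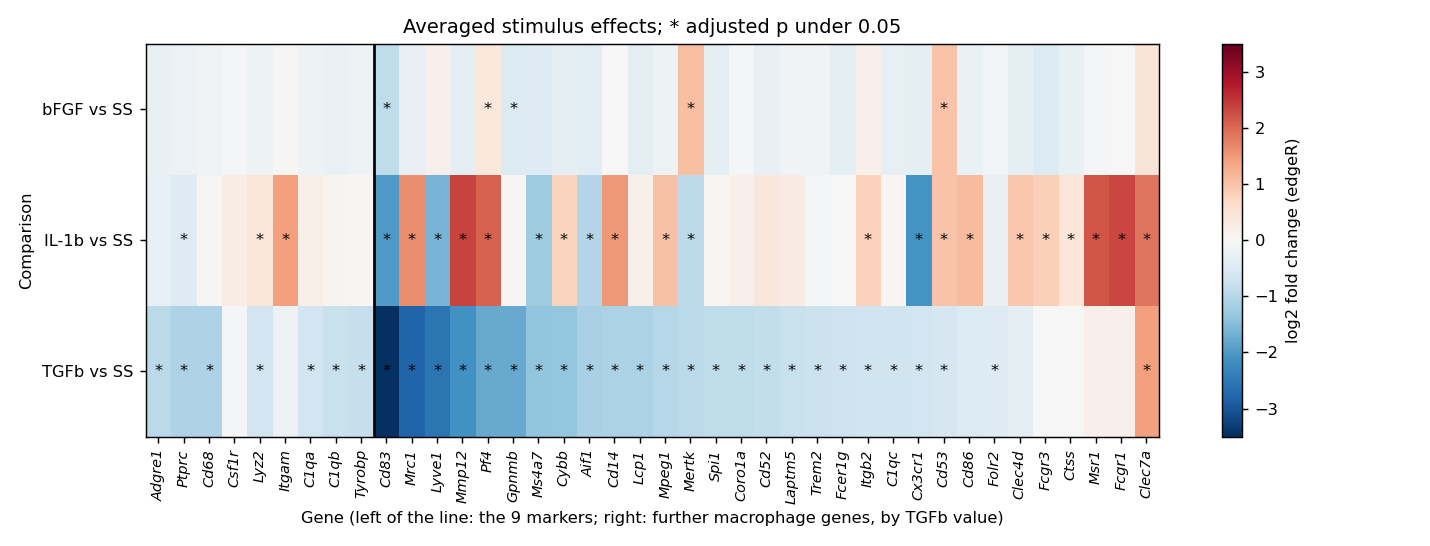
Log2 difference between each stimulus and SS, averaged over the vectors, for the 9 macrophage markers and 31 further macrophage genes. Asterisks mark an adjusted p under 0.05, and the TGFb row is negative for all 9 markers and for 27 of the further genes shown.

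Between the vectors, 1 of the 32 rose and 1 fell in iCre, averaged over the conditions, where 2.83% of all genes tested changed. Mmp12 rose by 0.97 ± 0.14 (adjusted p = 0.000512, edgeR) and Pf4 fell by -0.64 ± 0.10 (adjusted p = 0.00109). The fit treats the conditions of a number as separate evidence on the vector. With counts summed over the 4 conditions of each vector and number, Mmp12 differed by 0.57 (adjusted p = 0.276) and Pf4 by -0.51 (adjusted p = 0.181), past no threshold.

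Genes of antigen presentation by MHC class II, which activated macrophages and dendritic cells use, gave 5 tested of 7. With TGFb 2 fell, against 35.8% of all genes tested. They were H2-Eb1, by -1.21 (adjusted p = 0.000256, edgeR), and the invariant chain Cd74, by -1.66 (adjusted p = 0.00197, edgeR). Mean levels were low, at 0.538 CPM with TGFb and 1.28 CPM in SS for H2-Eb1, and 0.0906 and 0.294 CPM for Cd74. Cd74 had only 297 counts in all. Across the libraries, r with the mean of the macrophage markers ran from -0.087 (Cd74) to 0.575 (H2-DMa) for the 5 tested genes. With IL-1b, Cd74 rose by 1.24 (adjusted p = 0.00331) and H2-Eb1 fell by -0.64 (adjusted p = 0.0354), a call that several omissions of 1 library ended. With total counts as the only scaling, 4 fell with TGFb. With bFGF all 5 were lower, with a median of -0.61, and 0 of 5 were called by edgeR or by DESeq2 in the model with the replicate number. With a term for each vector and number H2-Eb1 was called (-0.61, adjusted p = 0.0274), and omissions of 1 library or number gave 0 to 2 calls.

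The growth factors that macrophages use also changed with the stimuli. Csf1, whose product CSF-1 binds the receptor encoded by Csf1r, averaged 1970 ± 703 CPM in iCre cells with IL-1b, 1240 ± 604 CPM in iCre cells with TGFb and 711 ± 197 CPM in iCre cells in SS (SD, n = 4 each). In LacZ cells it averaged 2280 ± 577 CPM with IL-1b, 1270 ± 496 CPM with TGFb and 717 ± 175 CPM in SS (SD, n = 4 each). The log2 difference was 1.53 ± 0.13 with IL-1b (adjusted p = 5.96e-10, edgeR) and 0.73 ± 0.13 with TGFb (adjusted p = 1.94e-05), and higher in 8 of 8 pairs with each. With bFGF it was 0.22 (adjusted p = 0.209), and without number 4 it was 0.47 (adjusted p = 0.000336). Leaving out the LacZ SS library 4 or the iCre bFGF library 4 alone also gave a call.

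Il34, the other ligand of the receptor, fell by -1.30 ± 0.18 with TGFb (adjusted p = 6.54e-07) and was lower in 8 of 8 pairs. Its difference with IL-1b was -0.39 (adjusted p = 0.0616). Of the 5 growth factor genes listed, 4 rose with IL-1b, against 23.4% of all genes tested. Among them were Csf3 by 8.36 (adjusted p = 6.88e-17, edgeR) and Csf2 by 5.19 (adjusted p = 3.5e-08, edgeR). In SS Csf3 averaged 0.0317 CPM and Csf2 0.0147 CPM, so the size of both differences rests on levels near the floor. With TGFb 2 rose and 1 fell, where 68% of all genes tested changed and 35.8% fell. With bFGF 1 rose, Tgfb1 by 0.65, or 1 to 3 when a library or number was left out. Of all genes tested, 29.5% changed with bFGF. The 4 receptor genes Csf2ra, Csf2rb, Csf3r and Il3ra all rose with IL-1b, where Csf3r had only 120 counts over the 32 libraries. Of the 4, 2 fell with bFGF, Csf2ra and Il3ra, and 1, Il3ra by -0.35, fell with TGFb. Without the replicate number in the model 2 rose with IL-1b and 0 fell with bFGF, and omissions of a library or number gave 2 to 4 and 0 to 2. The Il3ra call with bFGF ended without any of the 4 numbers, and the Csf2ra call with IL-1b (0.26) ended without number 1 or number 3. With TGFb, 2 fell both with a term for each vector and number and under scaling by total counts alone.

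Monocyte-attracting chemokines all rose with IL-1b, 8 of 8, against 23.4% of all genes tested. The smallest p-values were those of Ccl7 (5.60, adjusted p = 1.36e-17, edgeR), Ccl5 (5.75, adjusted p = 2.37e-15), Ccl2 (5.97, adjusted p = 3.1e-14) and Ccl8 (4.74, adjusted p = 5.25e-13). With bFGF 3 rose, where 29.5% of all genes tested changed. With TGFb 1 rose, Cx3cl1 by 2 on the log2 scale (adjusted p = 2.96e-08, edgeR), and 3 fell, against 35.8% of all genes tested. The count that fell with TGFb was 1 to 4 when a library or number was left out. The call of Ccl3 (-0.84, adjusted p = 0.0478, edgeR) ended without any of the 4 numbers, and without the replicate number in the model (adjusted p = 0.438).

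The lists for other leukocytes summed to less than the 9 macrophage markers, of whose 31.4 to 939 CPM Lyz2 held the most. The 5 T cell markers summed to 0.0525 to 3.25 CPM over the 32 libraries, of which Trac gave 696 of 723 counts, and Cd3g was at 0 in all. B cell markers summed to 0 to 0.534 CPM and NK cell markers to 0 to 0.337 CPM, with Ncr1 at 0. Neutrophil markers summed to 0 to 2.43 CPM, with S100a9 and Retnlg at 0 in all libraries and S100a8 up by 3.72 with IL-1b (adjusted p = 0.000264). Mast cell markers summed to 0 to 5.42 CPM, where Kit gave 1077 of 1138 counts and Fcer1a and Tpsb2 were at 0. Dendritic cell markers summed to 2.73 to 15 CPM, where Zbtb46, a transcription factor, gave 6398 of 6441 counts and Cd209a was at 0. Zbtb46 had a median of 7.49 CPM, and its log2 difference was -0.99 ± 0.12 with IL-1b (adjusted p = 3.3e-07, edgeR) and -0.43 ± 0.12 with TGFb (adjusted p = 0.00294).

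Of cells that are not leukocytes, the 5 endothelial markers summed to 9.68 to 17.6 CPM with bFGF, 5.77 to 14.3 CPM with IL-1b and 5.6 to 10.6 CPM with TGFb, against 16 to 34 CPM in SS. Tek, a receptor of angiopoietins, gave 9392 of these counts, and it fell with each stimulus, with TGFb by -1.79 ± 0.18 (adjusted p = 5.12e-09, edgeR). With TGFb 2 of the 4 tested endothelial genes fell, against 35.8% of all genes tested. They were Tek and Pecam1, the latter with a median of 0.552 CPM over the 32 libraries, while Cdh5 differed by 0.11 (adjusted p = 0.768, edgeR). The 5 cardiomyocyte markers summed to 5.77 to 36.5 CPM with bFGF, 4.12 to 7.37 CPM with IL-1b and 7.87 to 36.6 CPM with TGFb, against 22.2 to 128 CPM in SS. Tnnt2, cardiac troponin T, gave 20448 of their 21966 counts, whereas Myh6 had 31 and Actc1 13. Tnnt2 fell with each stimulus, by -1.56, -4.16 and -2.27. Of the 3 genes tested it was the 1 that fell with TGFb, against 35.8% of all genes tested.

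The 6 fibroblast markers summed to 9640 to 23700 CPM with bFGF, 13200 to 31000 CPM with IL-1b and 27200 to 40800 CPM with TGFb, against 12400 to 24400 CPM in SS. With TGFb the collagen genes Col1a1 (1.2 ± 0.19, adjusted p = 6.26e-06, edgeR) and Col1a2 (0.59 ± 0.14, adjusted p = 0.000856) rose, and the other 4 fell, with a median of -1.15 over the 6. Of all genes tested, 68% changed with TGFb and 35.8% fell. Pdgfra, a growth factor receptor, averaged 194 CPM with TGFb and 675 CPM in SS, and Dcn, the proteoglycan decorin, 471 CPM with TGFb and 943 CPM in SS. Tcf21, a transcription factor, averaged 44.8 CPM with TGFb and 145 CPM in SS, and Dpt, dermatopontin, 197 CPM with TGFb and 480 CPM in SS (8 libraries each). The part of these shifts in the marker differences was not tested.

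**Figure D5:**
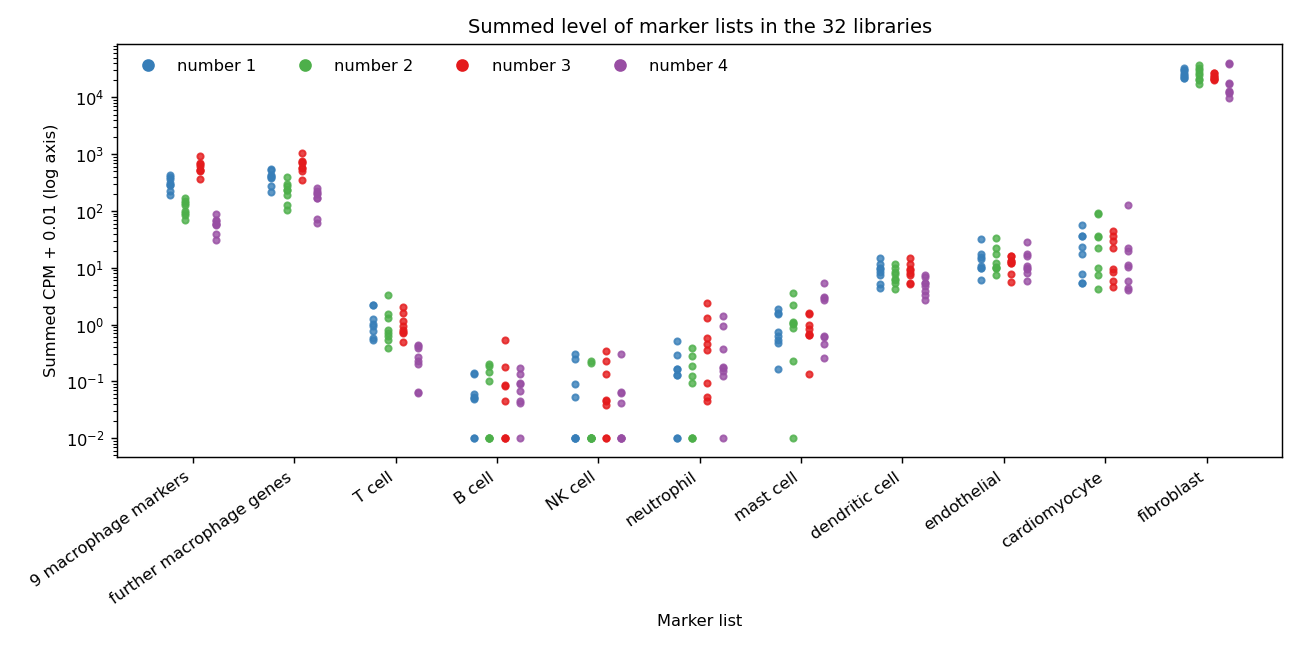
Summed level of 11 marker lists in each of the 32 libraries, in CPM plus 0.01 on a log axis, coloured by replicate number. The 9 macrophage markers run from 31.4 to 939 CPM and are ordered by number, whereas the B and NK cell lists stay under 1 CPM.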

How the data were processed

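The deposited table holds raw counts per gene for 32 poly(A) libraries, made by the authors with HTSeq 0.10.0 against mm10/GRCm38 after FastQC 0.10.1, per the submitters' processing notes. RNA was extracted with the RNeasy Micro kit and libraries were made with NEBNext Ultra II, per the labels' protocols. The aligner, strand setting, counting mode and annotation release were each not given in the sources used here. Of 55414 IDs, 52081 (99.75% of the counts) matched a GENCODE M21 symbol, and 0 columns were without a sample.

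The test was edgeR 4.0.16 under R 4.3.3, with TMM scaling, its low-count filter by group at a minimum count of 10, quasi-likelihood fits with robust dispersion, 8 group means and the replicate number as a block, leaving 21 residual degrees of freedom. Two-sided p-values were adjusted after Benjamini and Hochberg over the 16760 genes of each of 17 comparisons, and 0.05 was the threshold. SE is the log2 difference over the square root of its F value and is not given for differences under 0.05. CPM use TMM-scaled library sizes, and log2 levels a prior count of 0.5. DESeq2 1.42.0 was the other tool. The fit was tested on simulated data. Python 3.11.15 and matplotlib 3.10.9 drew the figures.

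Deviations from group means of same-numbered libraries correlated at 0.121 to 0.831 over 40 pairs of groups, each above 0.1, so the numbers were taken to pair the libraries. Within groups, the ratio of chi-square to degrees of freedom between 2 libraries was at least 9.2 over 48 pairs, so no library repeats another of its group. Libraries of different groups were not compared in this way. The members and lists were chosen with earlier results of these data known. Named are all 9 members, the 10 genes most like them by each measure (protein coding, average log2 CPM of at least 1), and per list up to 4 genes with the smallest p, plus defining markers. Not every eligible gene is printed, 1 gene of the wider macrophage list is counted but not reported here, and list genes beyond this rule were chosen after their values were seen. Alternatives were no block, a block per vector and number, a block per condition and number, counts summed over conditions, RLE factors, total counts only, no low-count filter, DESeq2, and leaving out each of 32 libraries and each of 4 numbers.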

Additional observations from a re-analysis of the deposited data

Results flagged for a closer look

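Csf1r was the marker whose TGFb response took opposite signs in the vectors. In iCre cells all 4 pairs were higher with TGFb than in SS, and in LacZ cells all 4 were lower, and the mean log2 responses of the vectors differed by 0.46. The interaction test in edgeR gave 0.42 ± 0.30 with an adjusted p of 1, which is not past the threshold. In 72 groups of 4 libraries (9 markers in 8 groups), 0 had a highest or lowest library whose gap to the next exceeded Dixon's critical share of the group's range, which chance alone exceeds in about 1 of 20 groups.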

How the results depend on the processing

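Among the 27 marker differences past the threshold, 0 changed sign under any alternative. Without the replicate block, the spread between numbers enters the error: with IL-1b and with TGFb, 0 of the 9 markers were called on average, in iCre cells or in LacZ cells, with an adjusted p of 0.11 (Cd68) to 0.49 (C1qa) for the 7 genes called with TGFb and of 0.0935 for Itgam with IL-1b. With a block for each vector and number, 3 markers were called lower with bFGF on average, 6 with IL-1b on average (4 higher, 2 lower), 5 with IL-1b in iCre cells and 3 with IL-1b in LacZ cells. The extra calls with bFGF were Adgre1, Lyz2 and C1qa, and those with IL-1b on average were Adgre1, Csf1r and C1qa. RLE factors, total counts only, no low-count filter and DESeq2 kept each count of markers within 1.5 times.

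Leaving out 1 library or number gave 7 to 7 calls with TGFb on average, 4 to 7 in iCre cells (4 without number 4) and 5 to 7 in LacZ cells. The range was 2 to 5 with IL-1b on average (5 without number 3), 1 to 3 in iCre cells (1 without number 1 or without the iCre SS library 2), 1 to 3 in LacZ cells (3 without the LacZ SS library 3), 0 to 1 with bFGF on average (Adgre1, without the LacZ SS library 3) and 0 to 1 for iCre against LacZ on average. For the wider macrophage list, the counts without the block were 2 higher and 8 lower with TGFb, 7 and 3 with IL-1b, 1 and 0 with bFGF, and 0 for iCre against LacZ. The cause of these changes was not tested. Counts of Itgam, Ptprc and Tyrobp in number 4, down to 7, limit what its pairs can show.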
